A study of Homo sapiens with 7 samples.

Results

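The genes followed here code for proteins by which human cells sense extracellular protons, namely the sodium channels ASIC1 and ASIC3, the chloride channel PACC1, and the receptors GPR4 and GPR65. They were taken by name from a table of 19978 genes, and all 5 were in it. The cells were HEK-293, an established line from human embryonic kidney, grown for 48 h in one of 3 media. Control cells (n = 2) had medium at pH 7.4 with DMSO, the solvent. SRPIN340 cells (n = 2) had medium at pH 7.4 with 10 µM SRPIN340, an inhibitor of the kinases that phosphorylate SR splicing factors. Acidosis cells (n = 3) had medium acidified to pH 6.6, also with DMSO. The study's methods give the same share of DMSO in all 3 media, SRPIN340 included, and HCl as the acid. One protocol label spells the number of the compound differently. No group had a gene deleted, and all used 1 cell line. The study's methods call the libraries of a group biological repeats, and the labels do not say how the cultures were kept apart.

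Acid-sensing ion channels are trimers of the epithelial sodium channel family that open when extracellular pH falls. ASIC1 is the main proton-gated channel of central neurons and ASIC3 that of sensory neurons that report acid pain. PACC1, also called TMEM206, forms the proton-activated outward rectifier through which chloride enters acid-treated cells, and HEK-293 cells are known to carry such a current. GPR4 and GPR65 are receptors whose extracellular histidines take up protons. They act mainly through the G protein Gs, adenylyl cyclase and cyclic AMP. GPR4 is known from endothelium and GPR65 from lymphocytes and macrophages.

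The 3 channel genes were expressed and both receptor genes were at or near the limit of detection. In acidosis, ASIC3 rose 2.80-fold, ASIC1 1.52-fold and PACC1 1.49-fold over control on the scaled level. GPR65 stood at 6 to 11 reads per library and GPR4 at 0 to 10. With SRPIN340 none of the genes tested passed the test. The size of the ASIC1 and PACC1 rises depended on how the libraries were scaled, which is taken up beside the values.

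The genes are spread over 5 chromosomes, given here on GRCh38 with GENCODE release 44. ASIC1 (ENSG00000110881.12) lies on the plus strand of chromosome 12, from 50057548 to 50083611, with 12 exons in its canonical transcript. ASIC3 (ENSG00000213199.8) lies on the plus strand of chromosome 7, from 151048292 to 151052756, with 11 exons. PACC1 (ENSG00000065600.13) lies on the minus strand of chromosome 1, from 212363928 to 212414901, with 8 exons. GPR4 (ENSG00000177464.5) lies on the minus strand of chromosome 19, from 45589764 to 45602212, and GPR65 (ENSG00000140030.6) on the plus strand of chromosome 14, from 88005135 to 88014811. Each receptor gene has 2 exons.

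ASIC1 and ASIC3 are paralogs, so the sequence they share decides whether their reads can be told apart. Stretches of 31 nt were compared, on the coding strand, with transcripts of the other genes among the 19978. Transcripts outside that set, such as other noncoding RNAs, were not searched. Of the 3856 stretches in the canonical ASIC1 transcript, 3 also occur in another of the genes searched. These are the same 3 of 2023 found in ASIC3. They belong to 1 run of 33 nt that crosses an exon junction in both genes, between exons 9 and 10 of ASIC1 (chromosome 12, 50080578 to 50081162) and between exons 7 and 8 of ASIC3 (chromosome 7, 151051890 to 151052043). The run falls in the second membrane-spanning segment, which lines the pore of these channels. It is shown in capitals with 20 coding bases on either side, 5′ to 3′ on the coding strand.

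ASIC1: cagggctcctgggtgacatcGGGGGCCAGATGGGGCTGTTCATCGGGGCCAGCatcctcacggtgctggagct

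ASIC3: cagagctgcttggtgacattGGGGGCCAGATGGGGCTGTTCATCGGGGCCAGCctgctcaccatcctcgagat

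PACC1 shared no stretch of 31 nt with another of the genes searched. GPR4 shared 115 of 3022 (3.81%), most of them with OPA3, whose exons overlap 118 nt of GPR4 on the same strand. GPR65 shared 166 of 4481 (3.70%), of which 57 with MTHFD1, the gene that shared most. It also overlaps 236 exonic nt of an antisense long noncoding RNA, which was not among the genes searched. The few reads of the receptor genes are therefore less certain in their assignment than those of the channels.

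The 250 bases upstream of a RefSeq start of each of the 3 channel genes that rose are shown next (GRCh38.p14, coding strand, 5′ to 3′), because these genes moved in the same direction. Capitals mark GGGCGG on either strand, the core bound by SP1 and KLF factors. The letters searched in 300 bases, from 250 before to 50 after each start, were TGACGTCA (the cyclic AMP response element), TGANTCA (AP-1), GGGCGG, GAANNTTC (the heat shock element) and CCAAT, on both strands. The matches found did not overlap one another.

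ASIC1, chr12:50057920-50058169, plus strand: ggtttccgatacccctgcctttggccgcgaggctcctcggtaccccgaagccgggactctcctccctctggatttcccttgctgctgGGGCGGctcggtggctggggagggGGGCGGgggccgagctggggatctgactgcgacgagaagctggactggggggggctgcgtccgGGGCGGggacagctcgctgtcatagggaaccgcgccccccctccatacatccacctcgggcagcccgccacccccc

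ASIC3, chr7:151048042-151048291, plus strand: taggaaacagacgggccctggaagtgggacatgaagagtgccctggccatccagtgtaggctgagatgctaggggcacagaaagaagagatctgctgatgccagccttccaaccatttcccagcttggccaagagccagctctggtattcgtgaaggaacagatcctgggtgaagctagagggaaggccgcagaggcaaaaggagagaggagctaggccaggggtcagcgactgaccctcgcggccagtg

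PACC1, chr1:212414887-212415136, minus strand: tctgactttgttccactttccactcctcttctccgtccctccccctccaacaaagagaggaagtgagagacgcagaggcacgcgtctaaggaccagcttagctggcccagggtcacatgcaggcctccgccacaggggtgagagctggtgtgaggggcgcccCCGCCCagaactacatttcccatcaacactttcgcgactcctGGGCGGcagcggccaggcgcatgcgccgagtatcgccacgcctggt

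The ASIC1 window had 3 matches to GGGCGG and 71.6% G and C, the PACC1 window 2 matches and 62.4%, and the ASIC3 window none and 58% G and C. The GENCODE canonical start lies 574 nt from this ASIC1 start and 239 nt from this ASIC3 start. GGGCGG occurred in 56.8% of the 21596 windows of all genes. None of these 3 windows held the cyclic AMP response element, AP-1, the heat shock element or CCAAT, which occurred in 2.29%, 6.17%, 5.64% and 34.9% of all windows. RefSeq lists further starts that are not shown. The window of the second ASIC3 start, which is the GENCODE canonical one and lies almost wholly after the first start, held 2 matches to CCAAT, that of the third ASIC1 start held 2 to GGGCGG, and that of the second ASIC1 start held none of the motifs. These matches describe letters and say nothing of binding.

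Libraries held 13615816 to 24110460 counts. The 100 most abundant genes took 15.2% to 15.4% of the counts at pH 7.4 and 24.1% to 24.8% in acidosis. The levels below are in CPM, counts per 1000000 after TMM scaling, which sets libraries to a common level over most genes. TMM and scaling by total count differed here: the median log2 change of all 14863 genes tested, acidosis against control, was -0.05 with TMM and -0.63 with total count alone. All 10 marker genes listed for HEK-293 (PAX2, vimentin, neurofilaments and others) were detected, with a summed level of 1795 to 1910 CPM in control, 1820 to 1871 CPM with SRPIN340 and 4197 to 4262 CPM in acidosis. Most of that rise was vimentin, from 867 to 2714 CPM on average, with SOX11 and NEFM also called higher. PAX2, a kidney factor, fell from 6.78 to 1.82 CPM on average (log2 change -1.93, adjusted p = 0.00024), and INA and KRT18 also passed the test lower.

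ASIC1 was the most abundant of the 5 genes per transcript length. It read 34.1 and 41.3 CPM in control, 41.7 and 43.0 CPM with SRPIN340, and 63.5, 52.1 and 56.2 CPM in acidosis. Every acidosis library stood above every library at pH 7.4. Its level rose by 0.61 ± 0.12 on the log2 scale against control (SE, edgeR quasi-likelihood test, adjusted p = 0.00141), and by 0.44 ± 0.12 against SRPIN340 (adjusted p = 0.00868). Without the first SRPIN340 library the latter was 0.41 (adjusted p = 0.068).

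ASIC3 showed the largest difference of the 5 genes between acidosis and control. Its levels were 3.89 and 3.33 CPM in control, 3.76 and 3.30 CPM with SRPIN340, and 11.2, 8.17 and 10.8 CPM in acidosis. Every acidosis library was more than 2 times the highest library at pH 7.4. The log2 change was 1.48 ± 0.22 against control (adjusted p = 0.000235) and 1.52 ± 0.22 against SRPIN340 (adjusted p = 0.000203). These levels rested on 87 to 189 reads per library.

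PACC1 had 17.7 and 22.5 CPM in control, 22.2 and 25.7 CPM with SRPIN340, and 31.8, 26.5 and 31.6 CPM in acidosis. The acidosis libraries again lay above the others, but the lowest of them exceeded the highest SRPIN340 library only narrowly. PACC1 rose by 0.58 ± 0.15 on the log2 scale against control (adjusted p = 0.0066). Against SRPIN340 the log2 difference was 0.33 ± 0.15 and did not pass the test (adjusted p = 0.0762). Without the first control library the change against control was 0.41 (adjusted p = 0.0741), and without the second acidosis library the difference from SRPIN340 was 0.41 (adjusted p = 0.0349).

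**Figure D1:**
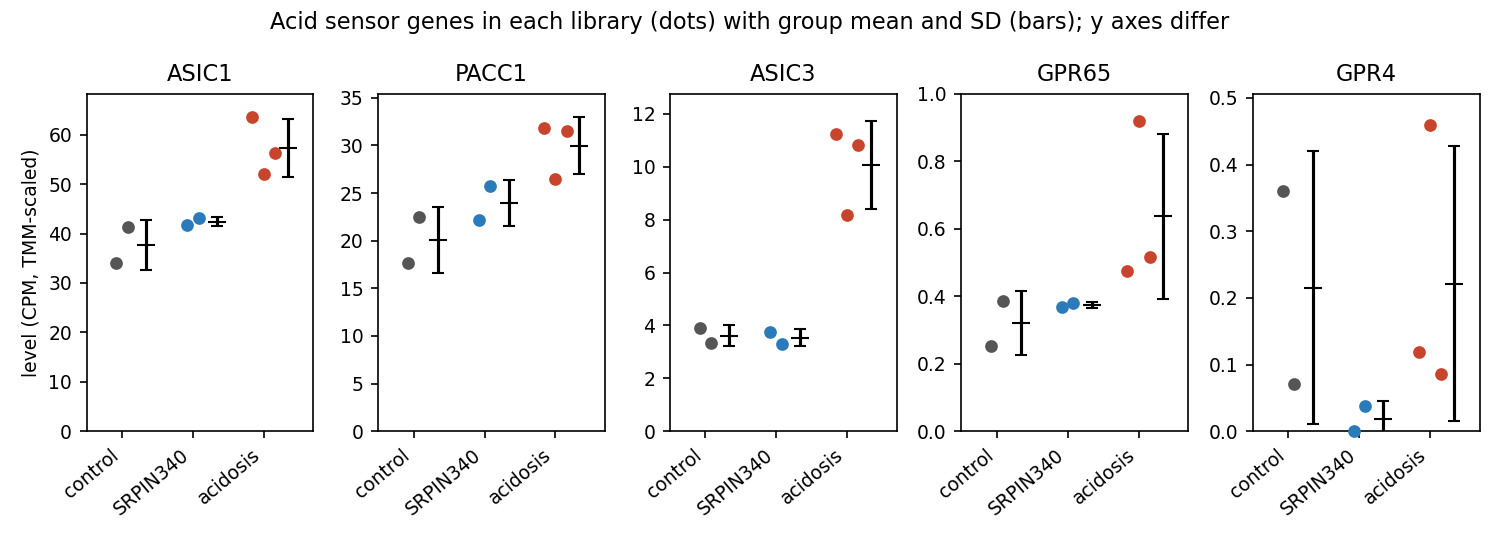
Level of each of the 5 genes in CPM after TMM scaling (vertical axes, one scale per gene, from 0) in control, SRPIN340 and acidosis; dots are libraries, bars the group mean and SD. The 3 acidosis libraries lie above all others for ASIC1, PACC1, ASIC3 and GPR65, while GPR4 overlaps between control and acidosis.

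In acidosis against control, 3 of the 4 genes tested were higher at an adjusted p under 0.05, where 32.5% of all genes tested were. One of the 4, ASIC3, was also changed by more than 2-fold, against 14.4% of all genes. All 4 had acidosis and control libraries that did not overlap, with acidosis higher, which held for 37% of all genes. The ASIC1 and PACC1 changes were thus of a kind found in many genes: 73.1% and 72.1% of all genes tested had a lower log2 change, and for ASIC3 92.7%. Against SRPIN340, 2 of the 4 genes were higher at an adjusted p under 0.05 (32.8% of all genes) and 1 by more than 2-fold (14.9% of all genes).

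The scaling set the size of these changes. By total count without TMM, ASIC1 read 39.97 and 48.8 CPM in control and 50.1, 41.7 and 43.98 CPM in acidosis, and PACC1 20.7 and 26.6 CPM against 25.1, 21.2 and 24.7 CPM. In those units both genes overlapped between the groups. The log2 changes were then 0.03 (adjusted p = 0.829) for ASIC1 and 0.0025 (adjusted p = 0.989) for PACC1, and against SRPIN340 they took the opposite sign, -0.18 and -0.29. ASIC3 kept a log2 change of 0.91 (adjusted p = 0.00442), under the 2-fold limit. Relative to the median of all genes the changes were 0.66 for ASIC1, 0.63 for PACC1 and 1.53 for ASIC3 under both scalings. Over all genes, 2145 were called higher and 2840 lower with TMM, and 815 and 5202 with total count, so that 43.0% and 13.5% of the calls were higher.

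**Figure D2:**
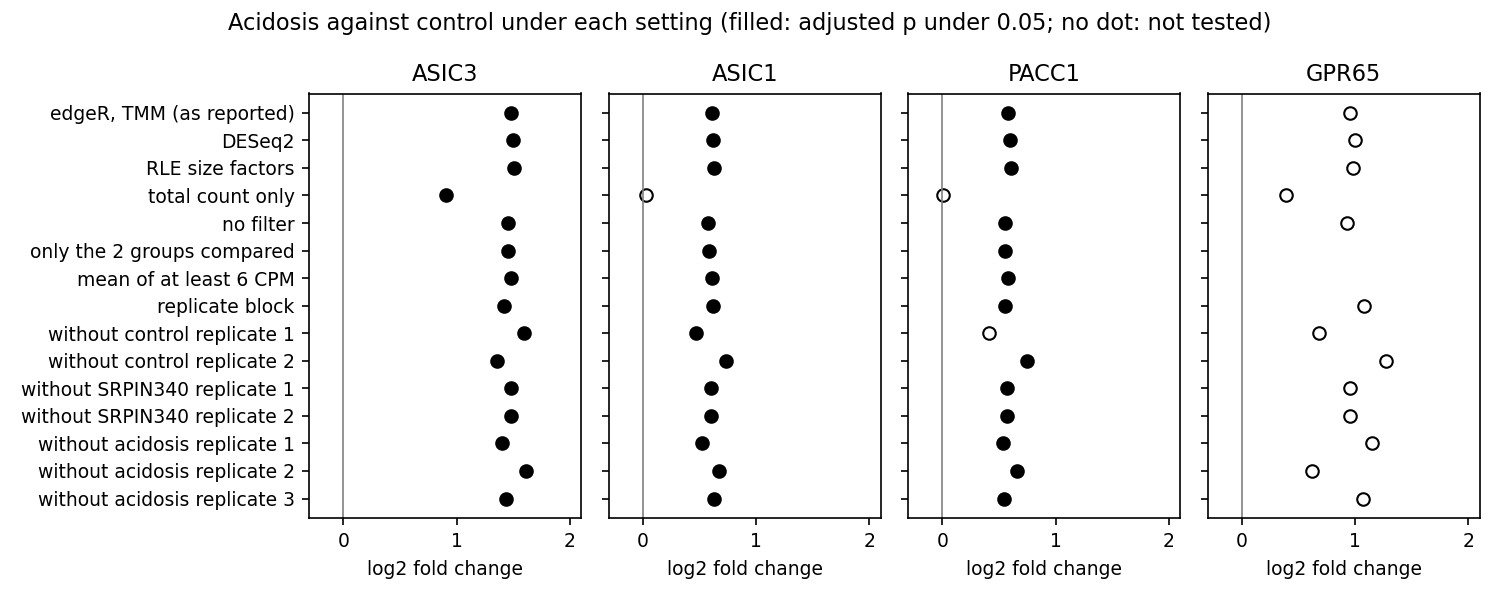
Log2 change of each gene tested, acidosis against control (horizontal axis), under each processing setting (vertical axis); filled dots have an adjusted p under 0.05, open dots do not, and a missing dot means that the gene was not tested. ASIC3 stays right of 0.9 in every setting, whereas ASIC1 and PACC1 fall to 0.03 and 0.0025 when libraries are scaled by total count only.

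Ratios of genes within a library do not depend on that choice. There were 0.114 and 0.0804 ASIC3 reads per ASIC1 read in control, 0.0903 and 0.0769 with SRPIN340, and 0.176, 0.157 and 0.192 in acidosis. The acidosis ratios lay above all others. Reads of PACC1 per ASIC1 read were 0.518 and 0.546 in control, 0.532 and 0.597 with SRPIN340, and 0.501, 0.508 and 0.561 in acidosis, so that the groups overlapped. Per kb of transcript, ASIC3 made up 7.60% to 10.6% of the summed level of the 3 channel genes in control, 6.97% to 8.49% with SRPIN340 and 14.1% to 16.2% in acidosis. These ratios were not tested, since an exact permutation test of 2 against 3 libraries cannot give a two-sided p below 0.2.

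GPR65 was at the edge of what the libraries could resolve. It had 7 and 11 reads in control, 10 and 10 with SRPIN340, and 8, 10 and 6 in acidosis. Scaled, these were 0.252 and 0.386 CPM, 0.369 and 0.380 CPM, and 0.475, 0.918 and 0.516 CPM, where 3 reads amount to 0.105 to 0.275 CPM. The scaled levels were higher in acidosis but the reads themselves were not. It entered the test because 2 of 7 libraries reached the low-count limit of 0.459 CPM, which applies to CPM by total count without TMM. The log2 difference of 0.96 ± 0.58 against control did not pass the test (adjusted p = 0.174), and its 95% interval ran from 0.782-fold to 4.81-fold.

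Markers of the cell types in which GPR65 is usually found were read as well. Of 13 leukocyte markers, CD3E, CD2 and MS4A1 were at 0 in every library and 7 were detected. The summed level of the list was 184 to 186 CPM in control, 187 to 188 CPM with SRPIN340 and 345 to 390 CPM in acidosis, nearly all of it LCP1 (plastin-2), which rose by 1.01 on the log2 scale. In acidosis against control, PTPRC, CD14, ITGAM, LYZ and LCP1 were called higher and CORO1A lower, all but LCP1 at means under 3 CPM, and CD68 rose by 0.67 on the log2 scale. The ITGAM call rested on 2 libraries, since it had 1, 12 and 34 reads in acidosis, 3 and 1 in control, and 3 and 27 with SRPIN340. The part of these markers in the GPR65 level was not tested.

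GPR4 was not detected by the rule of more than 3 reads in every library of a group. It had 10 and 2 reads in control, 0 and 1 with SRPIN340, and 2, 5 and 1 in acidosis, and no library reached the low-count limit, so it was not tested. A count of 0 in the first SRPIN340 library allows a level of up to 0.111 CPM. OPA3, which shares exonic bases with GPR4 on the same strand, had 322 to 1350 reads per library, and how far it feeds the GPR4 reads was not tested. Of 10 endothelial markers 5 were detected, with a summed level of 7.49 to 8.64 CPM in control, 6.45 to 8.28 CPM with SRPIN340 and 3.01 to 5.34 CPM in acidosis. Most of that fall was KDR, the receptor for vascular endothelial growth factor, which went from 5.14 to 0.536 CPM on average (log2 change -3.30, adjusted p = 2.01e-05). VWF was called higher, on 34, 5 and 3 reads in acidosis against 3 and 4 in control, and CDH5, the cadherin of endothelial junctions, had at most 2 reads in any library. The part of these markers in the GPR4 level was not tested.

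None of the 4 genes tested passed with SRPIN340 by edgeR, at an adjusted or an unadjusted p under 0.05 (0 genes each). DESeq2 gave an adjusted p for ASIC1 and PACC1 and called neither (0 genes), and gave none for ASIC3 and GPR65. ASIC1 differed by 0.17 ± 0.13 on the log2 scale (adjusted p = 0.561), PACC1 by 0.25 ± 0.16 (adjusted p = 0.462) and GPR65 by 0.22 ± 0.62 (adjusted p = 0.9). ASIC3 differed by -0.03 ± 0.24 (adjusted p = 0.968), with a sign that turned under total count scaling and when a library was left out. The 95% intervals ran from 0.92-fold to 1.37-fold for ASIC1, from 0.93-fold to 1.53-fold for PACC1 and from 0.673-fold to 1.42-fold for ASIC3. For GPR65 the interval ran from 0.446-fold to 3.06-fold. That of PACC1 includes the 1.49-fold change seen in acidosis. Of all genes, 2.3% had an adjusted p under 0.05 in this comparison, in either direction.

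**Figure D3:**
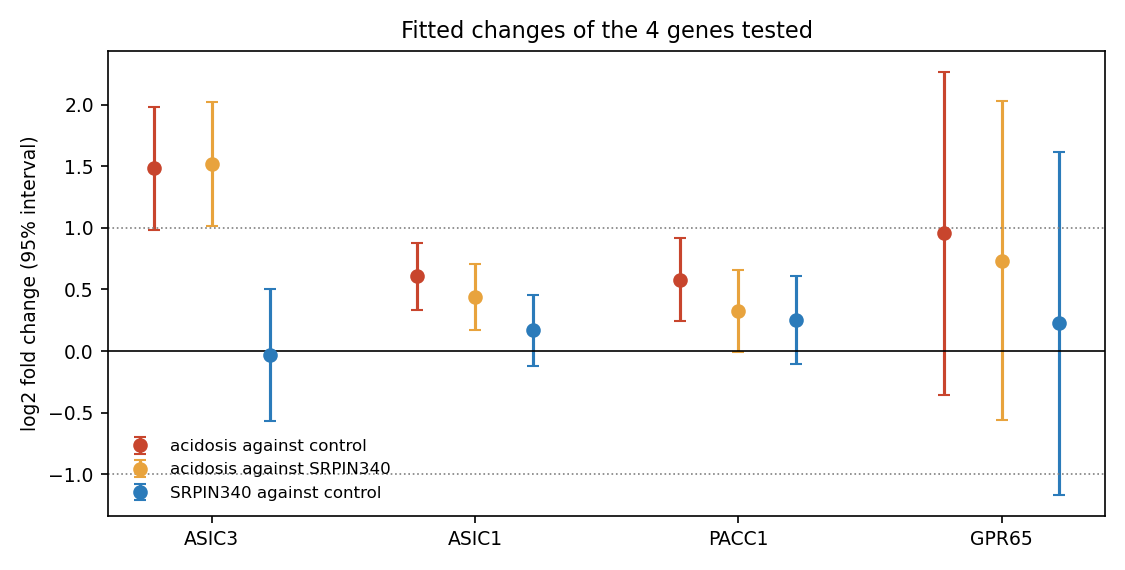
Fitted log2 change with its 95% interval (vertical axis) of the 4 genes tested, for acidosis against control, acidosis against SRPIN340 and SRPIN340 against control; dotted lines mark 2-fold. ASIC3 lies near 1.5 in both comparisons with acidosis and near 0 with SRPIN340, and the GPR65 intervals all cross 0.

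Levels of different genes were compared per kb of canonical transcript. In control these were 9.70 ± 1.30 CPM per kb for ASIC1 (SD, n = 2), 8.14 ± 1.40 for PACC1, 1.76 ± 0.19 for ASIC3, 0.071 ± 0.021 for GPR65 and 0.071 ± 0.067 for GPR4. The order was the same in acidosis, at 14.7 ± 1.49 CPM per kb for ASIC1 (SD, n = 3), 12.1 ± 1.21 for PACC1, 4.91 ± 0.81 for ASIC3, 0.141 ± 0.054 for GPR65 and 0.0725 ± 0.068 for GPR4. Libraries of ASIC1 and PACC1 overlapped in control, and those of GPR65 and GPR4 overlapped in both control and acidosis. Between PACC1 and ASIC3, and between ASIC3 and GPR65, the libraries did not overlap in any group.

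Other channels that protons open, close or pass through were listed together. Of 18 such genes 9 were detected and 7 were tested. In acidosis against control, KCNK2, KCNK5, HVCN1 and TRPV1 fell by more than 2-fold and KCNK1 rose, where 19.1% of all genes tested were called lower and 14.4% higher. The median log2 change was -1.01 beside -0.05 over all genes. With RLE size factors or DESeq2 3 were called lower, and the DESeq2 median over the 16 genes it fitted was -0.24. The acid-sensing relatives ASIC2, ASIC4 and ASIC5 were not detected.

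KCNK5 and KCNK2, potassium channels of the background type, fell from 5.44 and 6.70 CPM to between 0.602 and 1.19 CPM and from 6.41 and 6.92 CPM to between 0.734 and 1.46 CPM. Their log2 changes were -2.75 ± 0.30 (adjusted p = 2.87e-05) and -2.49 ± 0.28 (adjusted p = 3.06e-05). HVCN1, the voltage-gated channel through which protons leave cells, fell from 2.67 and 2.63 CPM to between 0.475 and 1.20 CPM (log2 change -1.80 ± 0.40, adjusted p = 0.00264). TRPV1, the capsaicin receptor that protons also open, fell from 12.6 and 12.8 CPM to between 4.64 and 7.60 CPM (log2 change -1.01 ± 0.21, adjusted p = 0.00171).

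KCNK1, a two-pore potassium channel whose selectivity depends on pH, was the 1 gene of the list that rose. It went from 23.5 and 24.3 CPM in control to 56.5, 58.7 and 55.1 CPM in acidosis (log2 change 1.25 ± 0.11, adjusted p = 7.13e-06). TRPV4 differed by -0.61 ± 0.46 on the log2 scale (adjusted p = 0.266) and KCNK9 by -0.26 ± 0.84 (adjusted p = 0.797), neither passing the test. KCNK3 and KCNK10 had at most 11 reads in any library and were not tested. With SRPIN340, none of the 8 other proton sensors tested passed by edgeR or DESeq2 (0 genes each), and 1, KCNK9, had an unadjusted p under 0.05 by edgeR (log2 difference 1.73 ± 0.74, adjusted p = 0.268).

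Of 5 other proton-sensing receptors 1 was detected. CASR, the calcium-sensing receptor, whose response depends on pH, went from 2.41 and 3.69 CPM to 4.87, 8.91 and 5.76 CPM (log2 change 1.08 ± 0.33, adjusted p = 0.0164). GPR132, GPR31, GPR151 and INSRR were not detected, and GPR31 and GPR151 were at 0 in every library.

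**Figure D4:**
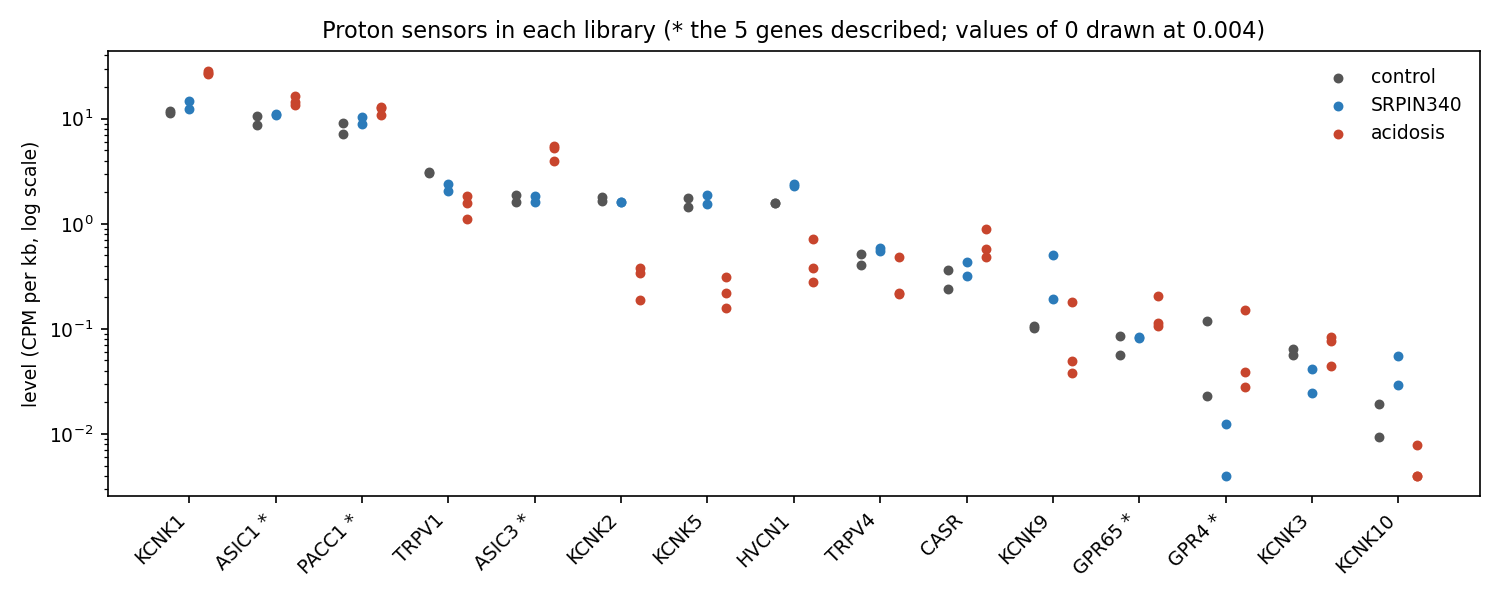
Level in CPM per kb of canonical transcript (vertical axis, log scale) of the 5 genes described, marked with an asterisk, and of every other proton sensor detected, ordered by the control mean; dots are libraries and values of 0 are drawn at 0.004. ASIC1, ASIC3, PACC1, KCNK1 and CASR are higher in acidosis than in control, and KCNK2, KCNK5, HVCN1 and TRPV1 lower.

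Genes of the sodium channel family and proteins known to bind or tune acid-sensing channels changed in both directions. Of 16 genes 14 were tested, and 5 (35.7%) rose and 3 (21.4%) fell by more than 2-fold in acidosis, where 14.4% of all genes were called higher and 19.1% lower. The median log2 change was -0.12 over these 14 genes and 0.59 over the 16 fitted by DESeq2, so the list had no settled direction. NEDD4L, a ubiquitin ligase that removes sodium channels from the membrane, rose from 97.7 to 299 CPM on average (log2 change 1.61 ± 0.08, adjusted p = 1.24e-07). SGK1, the kinase that counters NEDD4L, rose from 7.47 to 28.5 CPM on average (log2 change 1.93 ± 0.17, adjusted p = 6.42e-06). RIPK1, a death-signalling kinase linked to ASIC1, fell from 51.0 to 10.97 CPM on average (log2 change -2.22 ± 0.14, adjusted p = 6.41e-07). PICK1, S100A10 and STOM, which bind acid-sensing channels, rose by 1.02, 1.42 and 1.10 on the log2 scale. Other genes of the list went the other way. STOML1 and NHERF1 were called lower, with log2 changes of -1.10 and -1.56. DLG1 and DLG4 passed the test lower, at -0.70 and -0.54. NHERF1, a scaffold protein, was the 1 gene of the list that changed with SRPIN340, from 43.4 to 29.9 CPM on average (log2 change -0.54 ± 0.12, adjusted p = 0.0498), and it read 14.7 CPM in acidosis.

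Other chloride channel genes gave 2 calls higher (10%) and 5 lower (25%) among 20 tested, near the shares of all genes (14.4% and 19.1%). LRRC8D, a subunit of the volume-regulated anion channel, fell from 36.8 to 5.92 CPM on average (log2 change -2.64 ± 0.13, adjusted p = 1.70e-07). CLCN4, an endosomal chloride and proton exchanger, fell from 17.4 to 4.47 CPM on average (log2 change -1.97 ± 0.16, adjusted p = 3.56e-06). BEST1, a calcium-activated chloride channel, rose by 1.75 ± 0.44 (adjusted p = 0.00608).

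GPR4 and GPR65 feed into cyclic AMP. Of 37 genes of that route tested, 6 (16.2%) rose and 9 (24.3%) fell by more than 2-fold, near the 14.4% and 19.1% of all genes, with a median log2 change of -0.11. PDE3B and PDE7B, which break down cyclic AMP, had log2 changes of -3.23 and -2.69 (adjusted p = 7.77e-08 and 0.0027). ADCY4, one of the cyclases that make it, rose by 2.43 ± 0.50 from 0.427 CPM on average (adjusted p = 0.00182). More abundant cyclases were called in both directions. On average ADCY1 rose from 39.0 to 98.5 CPM and ADCY2 from 4.81 to 14.4 CPM, while ADCY7 fell from 25.4 to 7.58 CPM. Of 21 genes tested that cyclic AMP and its factor CREB are known to induce, 15 (71.4%) rose and 2 (9.52%) fell by more than 2-fold. All genes gave 14.4% and 19.1%, and the median log2 change of the list was 3.62. The list was chosen with earlier results of these data known, so its share is a description only. Whether GPR4 or GPR65 had a part in it was not tested. FOS, JUNB and FOSB, immediate early genes that many other signals also induce, had log2 changes of 7.14, 6.43 and 6.39 (adjusted p = 2.56e-09, 1.50e-09 and 1.72e-08). With SRPIN340, 0 of the 55 genes tested in the 2 lists passed by edgeR, where 2.3% of all genes did. By edgeR 13 had an unadjusted p under 0.05, and 8 passed by DESeq2. Shares of all genes at these last 2 limits are not given, so no excess can be read from the counts.

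Proton-sensing receptors are also known to couple to Gq. Of 26 Gq and calcium genes tested, 2 (7.69%) rose and 7 (26.9%) fell by more than 2-fold, beside 14.4% and 19.1% of all genes, with a median log2 change of -0.43. ITPR2, a calcium release channel, fell from 88.8 to 18.8 CPM on average (log2 change -2.24 ± 0.20, adjusted p = 5.44e-06), PLCB2, a phospholipase, fell by 2.08 (adjusted p = 0.00213) and CAMK2D, a calmodulin kinase, fell by 1.33 (adjusted p = 2.10e-05). Among 15 receptor kinases, arrestins and RGS proteins, 2 were called lower (13.3%) and 1 higher (6.67%): ARRB1 and RGS3 fell by 1.79 and 1.44 and GRK2 rose by 1.08 on the log2 scale.

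Over the 137 genes tested in the 8 related lists, acidosis against control gave 33 calls of a rise (24.1%) and 31 of a fall (22.6%). All genes gave 14.4% and 19.1%. Of the 33 rises, 15 were genes of the list of cyclic AMP and CREB targets. Acidosis against SRPIN340 gave 28 (20.4%) and 29 (21.2%), beside 2213 and 2935 of the 14863 genes tested. The 2 comparisons share the acidosis libraries. Of the 103 list genes with an adjusted p under 0.05 against control, 8 took the opposite sign under total count scaling.

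**Figure D5:**
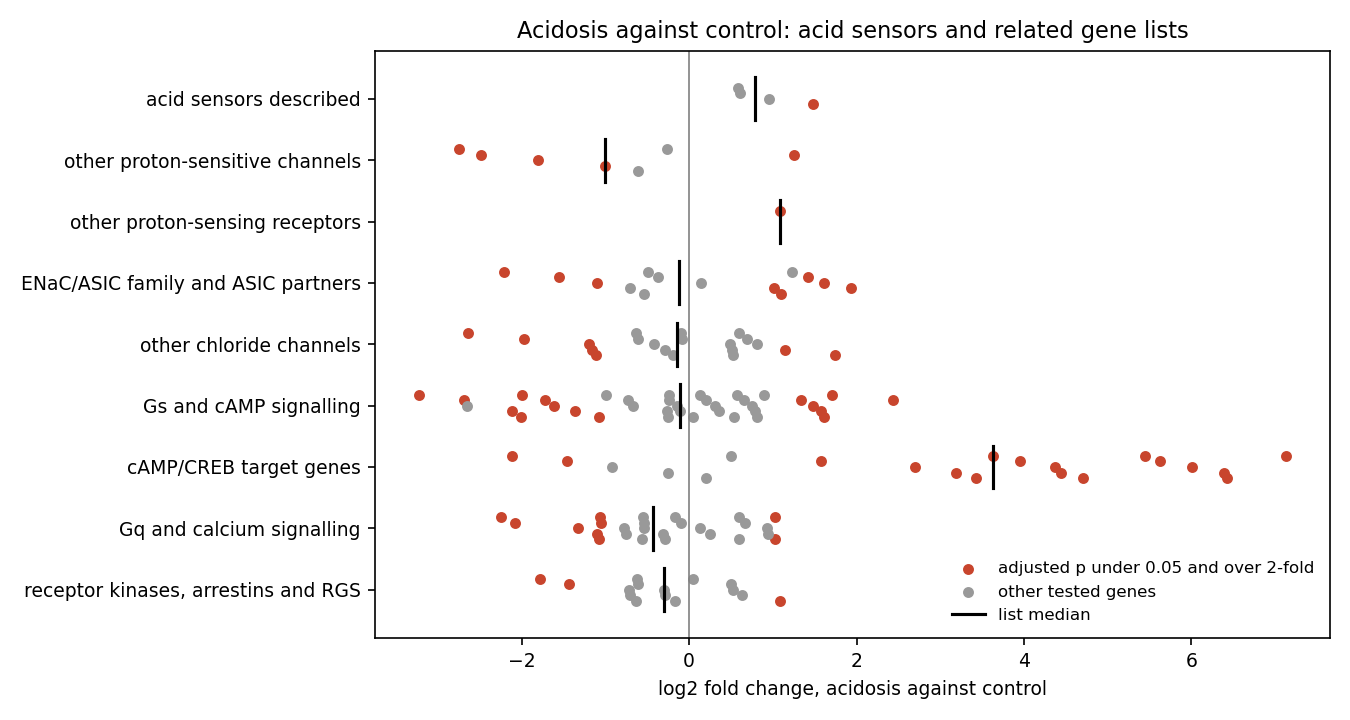
Log2 change in acidosis against control (horizontal axis) of every gene tested in the acid sensor set and in 8 related lists (vertical axis); red dots have an adjusted p under 0.05 and a change over 2-fold, and black bars are list medians. The median is 0.78 for the acid sensor set and 3.62 for genes known as targets of cyclic AMP and CREB. Of the other proton-sensing receptors CASR alone was tested (1.08). For the remaining lists the median lies between -1.01 and -0.11.

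The genes whose pattern over the 7 libraries was most like each sensor were found by Pearson's r of log2 CPM, given as a description. ASIC3 was most like MEST (r = 0.999), CELSR3 (0.998) and PPP3CC (0.997), which had log2 changes of 1.16, 2.99 and 1.03 in acidosis against control. ASIC1 was most like RAB15 (0.996), MAPRE3 (0.990) and ZNF316 (0.988). PACC1 was most like SPATA1 (0.989), TMEM120A (0.985) and ELAPOR2 (0.984), and GPR65 most like OTUD4 (0.976), RSPH10B (0.973) and CASR (0.970). All values share the same 7 libraries, and high ones were common for 2 of the genes: 23.5% of all genes had r above 0.9 with ASIC3, 10.1% with ASIC1, 1.66% with PACC1 and 0.464% with GPR65. ASIC1 and PACC1 had r = 0.958 with each other, and ASIC3 had 0.893 with ASIC1 and 0.789 with PACC1.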

How the data were processed

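Poly(A) RNA of HEK-293 cells was sequenced in 7 libraries. Per the processing notes of the submitters, the authors trimmed reads with Trimmomatic (0.39) and Trim Galore (0.6.6), quantified them with Salmon (1.5.1) on a Gencode GRCh38 transcriptome, and deposited estimated counts per gene made with tximport, whose scaling option is not given in the sources used here. The deposited estimated counts were rounded to whole counts, and groups were taken from the sample titles.

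Genes were filtered with filterByExpr, scaled with TMM and tested with edgeR (4.0.16, R 4.3.3), by its quasi-likelihood test with Benjamini-Hochberg adjustment over 14863 genes, in 1 fit of all 7 libraries and 3 contrasts. A call was an adjusted p under 0.05 and a log2 change over 1 in size. SE is the log2 change divided by the square root of F. Contrasts share libraries. The script was tested on simulated data. Alternatives were DESeq2 (1.42.0), other scalings, filters, samples and a replicate block. The 5 genes, the gene lists and the tests were chosen with earlier results of these data known. Named genes were the 5 sensors, every detected proton sensor, and in each other list up to 3 called genes with the largest change in acidosis and a mean of at least 1 CPM. PICK1, S100A10, STOM, STOML1, NHERF1, DLG1, DLG4, ADCY1, ADCY2, ADCY7 and single markers were named in addition after their values were seen. Some genes and 1 list planned for this work are not reported here.

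Depth was 13615816 to 24110460 counts per library. Intervals and floors (3 counts) cover counting error only.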

Additional observations from a re-analysis of the deposited data

How the results depend on the processing

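Log2 changes of the 4 genes tested kept their direction and their side of the threshold under DESeq2 (which gave no adjusted p for ASIC3 and GPR65 with SRPIN340), RLE size factors, no filter, a filter of at least 6 CPM and a fit of only the 2 groups compared, with GPR65 not tested under the 6 CPM filter nor, for acidosis, in the fit of 2 groups. Scaling by total count only gave 0.031 for ASIC1 and 0.0025 for PACC1 against control, -0.18 and -0.29 against SRPIN340, and 0.0078 for ASIC3 with SRPIN340. Under it 0 of the 5 genes were called and 1 had an adjusted p under 0.05 in each comparison with acidosis, 20 list genes were called higher and 51 lower against control and 18 and 61 against SRPIN340, and over all genes the calls were 815 higher and 5202 lower against control and 775 and 5505 against SRPIN340. Without the fold limit 3 of the 5 genes passed against control and 2 against SRPIN340, and 54 list genes passed higher and 49 lower against control, 50 and 56 against SRPIN340, and 0 and 1 with SRPIN340. Over all genes these were 4836 and 5081, 4882 and 5202, and 114 and 228. With SRPIN340, DESeq2 called 1 list gene higher and the fit of 2 groups 33 genes higher, where the reported fit had 0 and 19.

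With each library left out in turn, PACC1 ranged from 0.41 to 0.75 against control and from 0.22 to 0.43 against SRPIN340, ASIC1 from 0.36 to 0.50 against SRPIN340, and ASIC3 from -0.14 to 0.083 and GPR65 from -0.045 to 0.56 with SRPIN340. From 1 to 3 of the 5 genes then had an adjusted p under 0.05 against SRPIN340, and with SRPIN340 the calls over all genes were 3 to 30 higher and 8 to 36 lower. The cause of these changes was not tested. Same-numbered libraries deviated from their group means with correlations of -0.115 to 0.063. In a group of 2 libraries the deviations mirror each other, so these values cannot decide whether the libraries were paired. The replicate block gave 1.42 for ASIC3, 0.62 for ASIC1 and 0.55 for PACC1 in acidosis against control, and lowered the genes called higher with SRPIN340 from 19 to 5. Depth limits GPR4 and GPR65, at 0 to 11 reads per library.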
